A study of Mus musculus with 6 samples.

Results

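The Strelka lists of somatic single nucleotide calls from 3 mice were searched for changes of a C:G base pair to an A:T base pair, here called C to A. Every passed call written as C to A or as G to T in the lists was taken, which gave 2653 of 6411 calls. Animal 54 contributed 1205 of 2853 calls (42.2%, 95% Clopper-Pearson interval 40.4 to 44.1), animal 108 contributed 600 of 1480 (40.5%, 38.0 to 43.1) and animal 136 contributed 848 of 2078 (40.8%, 38.7 to 43.0). The calls were selected on their listed reference and variant base alone, so their number is a description. Whether C or G is the base on a given strand did not enter the choice, and the results below turn on that.

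DNA came from whole bone marrow and from ear of each animal, and Strelka had compared the marrow of an animal with its own ear. The labels give all 6 samples as C57BL/6 mice with R26CreERT2 and Srsf2 P95H, treated with tamoxifen in vivo and sampled 50 to 60 weeks later, when the animals were moribund. Animals 54 and 108 were males and animal 136 was a female. The design text gives 2 animals as R26-CreERT2 Srsf2 P95H/+ and 1 as hScl-CreERT R26eYFP Srsf2 P95H/+, which differs from the labels, and the driver was used in no comparison. R26-CreERT2 is expressed in most tissues, so ear cells may carry the altered Srsf2 allele as well. No animals with wild-type Srsf2 and no untreated animals were analysed here, so nothing below bears on an effect of the Srsf2 change.

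A C to A change seen from the other strand is a G to T change. Guanine is the base most readily oxidised in DNA, and its oxidised form, 8-oxoguanine, can pair with adenine, which turns a G into a T when the strand is copied. In cells, OGG1 removes 8-oxoguanine opposite cytosine and MUTYH removes adenine that was placed opposite it. Oxidation can also occur in extracted DNA. Both the gene strand and the genome strand were therefore counted. Lesions on the transcribed strand of a gene can be repaired while the gene is transcribed, which separates a gene's sense strand from its antisense strand. The forward and reverse strands of the reference genome are conventions of the assembly, and genes lie in either orientation, so that the gene strand and the genome strand can be told apart.

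The 2653 calls lay at 2653 different positions, and 0 positions were called in more than 1 animal. To show the bases at which the change was called, 7 windows of 21 bases are given from the RefSeq promoter sequences of GRCm38.p6, which cover 42 of the calls and hold the listed base at 42 of 42 of them. Complete windows existed for 41 calls. The windows shown are those of the call with the highest quality among these in each animal for a C on the forward strand and for a C on the reverse strand, with the call at Stam2 that VarScan2 also listed. Each is written on the strand that holds the changed C, which is the capital letter.
Ppfia4 intron, animal 54, reverse strand, chr1:134299243-134299263: tccccgcaccCtggagccgag
Stam2 5′ UTR, animal 54, forward strand, chr2:52742268-52742288: ccagccccacCggtggggccg
Ankrd1 5′ UTR, animal 54, forward strand, chr19:36119816-36119836: tggatgaaccCctggaactgg
Pard3 coding, animal 108, reverse strand, chr8:127474450-127474470: cacagccaaaCgtccgatgga
Rpf2 upstream, animal 108, forward strand, chr10:40247029-40247049: ccgcgagcgcCggaagagacg
Ddx1 5′ UTR, animal 136, reverse strand, chr12:13249131-13249151: cgcccgggccCgcagcggagg
0610011F06Rik 5′ UTR, animal 136, forward strand, chr17:25875485-25875505: tggtgccccgCgcgcattctg
The base after the changed C was A in 11, C in 13, G in 8 and T in 9 of the 41 complete windows, and the base before it was A in 6, C in 10, G in 15 and T in 10. These windows lie near gene starts, which are rich in C and G, and their base counts therefore describe this small set and not the calls at large.

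The changed C lay on the forward strand of the genome far more often than on the reverse strand. It was on the forward strand in 871 of 1205 calls (72.3%, 69.7 to 74.8) for animal 54, 443 of 600 (73.8%, 70.1 to 77.3) for animal 108 and 572 of 848 (67.5%, 64.2 to 70.6) for animal 136. The mean was 71.2% ± 3.33 (SD, n = 3 animals), and each animal departed from 50% in a two-sided exact binomial test, with Benjamini-Hochberg adjusted p of 3.61e-55, 2.48e-32 and 1.36e-24 over the 3 animals. All 20 chromosomes with at least 20 such calls, taken over the animals, had more calls with C on the forward strand, and their shares ran between 66.3% on chromosome 14 and 75.4% on chromosome 9. These tests count calls as independent, and the animals are the replicates.

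**Figure D1:**
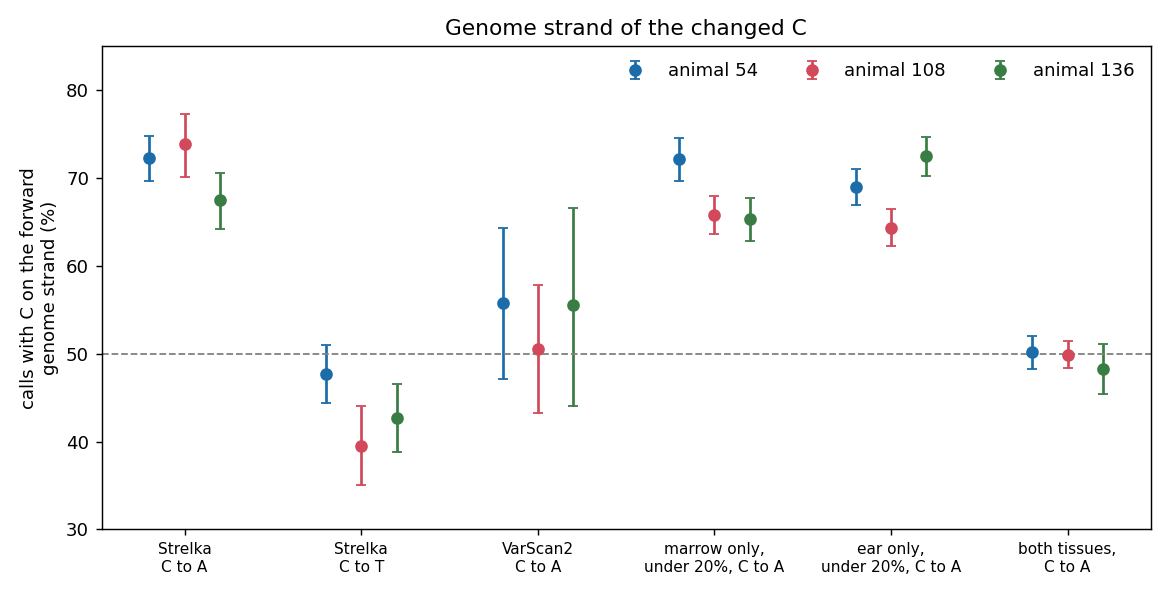
Share of calls with the changed C on the forward genome strand (%, y axis) for C to A calls of Strelka, C to T calls of Strelka, C to A calls of VarScan2, and C to A sites in the lists of all variants, by animal. Points are animals, bars are 95% Clopper-Pearson intervals and the dashed line is 50%. Strelka C to A calls and the low-fraction sites of either tissue alone lie above the line, and sites found in both tissues lie on it.

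The other classes of base change in the same lists had shares closer to 50%. C to T calls, the class known for deamination of methylated cytosine, had the C on the forward strand in 47.7%, 39.5% and 42.7% of calls in animals 54, 108 and 136. Those shares lay below 50%, with exact binomial adjusted p of 0.175, 1.43e-05 and 0.000321. C to A exceeded C to T by 24.6 percentage points (95% interval 20.5 to 28.7), 34.3 points (28.7 to 39.9) and 24.8 points (19.8 to 29.7) in the same order of animals. Fisher's exact test gave adjusted p of 2.97e-30, 4.16e-30 and 9.08e-22. The mean difference was 27.9 points ± 5.57 (SD, n = 3 animals), higher in 3 of 3 animals, and p was 0.25 in the exact sign-flip permutation test over pairs, the smallest that 3 animals allow. T to C calls had the T on the forward strand in 57.9%, 58.0% and 49.7%, with exact binomial adjusted p of 0.00177, 0.0155 and 0.959. A smaller forward excess of T to C thus passed the test in animals 54 and 108. T to A calls had the T there in 48.3%, 55.7% and 58.5% (exact binomial adjusted p 0.743, 0.552 and 0.195). The 2 rarest classes rested on few calls. T to G calls had the T on the forward strand in 25 of 41, 17 of 27 and 11 of 19 calls (61.0%, 63.0% and 57.9%), and C to G calls had the C there in 26 of 64, 9 of 24 and 19 of 52 (40.6%, 37.5% and 36.5%). Neither class passed the exact binomial test in any animal. The T to G intervals were 44.5 to 75.8, 42.4 to 80.6 and 33.5 to 79.7 in animals 54, 108 and 136. Each takes in the C to A share of the same animal.

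The forward strand preference was present in every kind of place in genes. Over the 3 animals it was 70.7% of 1370 coding calls, 71.7% of 113 calls at splice sites or splice regions, 74.5% of 145 calls in untranslated regions, 72.5% of 538 intronic calls and 71.5% of 403 calls upstream or downstream of genes. Among 68 intergenic calls it was 60.3% (47.7 to 72.0), an interval that takes in 50%. In animal 136 the untranslated regions had 54.8% (23 of 42 calls), against 81.9% in animal 54 and 83.9% in animal 108. The difference between places was not tested.

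VarScan2, the other caller used by the authors on the same tissue pairs, had no such preference that passed a test. Its somatic C to A calls had the C on the forward strand in 77 of 138, 97 of 192 and 45 of 81 calls of animals 54, 108 and 136, which is 55.8%, 50.5% and 55.6%. The exact binomial adjusted p were 0.561, 0.942 and 0.561, and the interval of animal 136, the widest, ran from 44.1 to 66.6. Of the 2653 Strelka C to A calls, 3 were also somatic calls of VarScan2, all in animal 54. The overlap of the other Strelka calls with VarScan2 was not compared, so the low count is not shown to be particular to C to A. They lay in the 5′ untranslated region of Stam2, which encodes an adaptor of the endosomal sorting machinery, upstream of the predicted gene Gm25948 and upstream of the microRNA gene Mir186. At the calls near Gm25948 and Mir186, 4 of 15 and 4 of 10 reads in marrow carried the variant, and all 4 variant reads were on the reverse read strand in each.

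The sense and antisense strands of genes showed no imbalance that passed a test. Among coding calls the changed C was in the sense strand, which has the sequence of the mRNA, in 314 of 610 calls (51.5%, 47.4 to 55.5) for animal 54, 158 of 323 (48.9%, 43.3 to 54.5) for animal 108 and 219 of 432 (50.7%, 45.9 to 55.5) for animal 136. The exact binomial adjusted p was 0.810 in each animal, and the mean was 50.4% ± 1.31 (SD, n = 3 animals). The C and G content of the coding sense strands was not counted. The test against 50% is therefore one of equal numbers and not of equal rates per base. The C to T calls had 49.0%, 45.7% and 50.0%. The mean difference, C to A minus C to T, was 2.11 points ± 1.28 (SD, n = 3 animals; exact sign-flip p = 0.25). The interval of the difference in each animal ran at most from -6.18 to 11.2 points, so a gene strand difference of up to about that size could not be seen at this number of calls. With calls of quality 30 or more the mean difference was -4.18 points, the opposite sign.

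The coding calls were also split by the orientation of the gene. In genes that lie on the forward strand, the changed C was in the sense strand in 70.4% of 335, 70.9% of 172 and 67.4% of 236 calls of animals 54, 108 and 136. In genes on the reverse strand it was in the sense strand in 28.4% of 275, 23.8% of 151 and 30.6% of 196 calls. In forward-strand genes the sense share is the forward genome share, and in reverse-strand genes it is the remainder to 100%. These values therefore restate the genome strand result by gene orientation and are no separate support for it, and no test is given. Forward-strand genes held 743 of the 1365 coding calls (54.4%) and reverse-strand genes 622 (45.6%), and the pooled share near 50% is the sum of these opposite parts. The favoured gene strand changed sides with gene orientation, and the favoured genome strand did not.

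**Figure D2:**
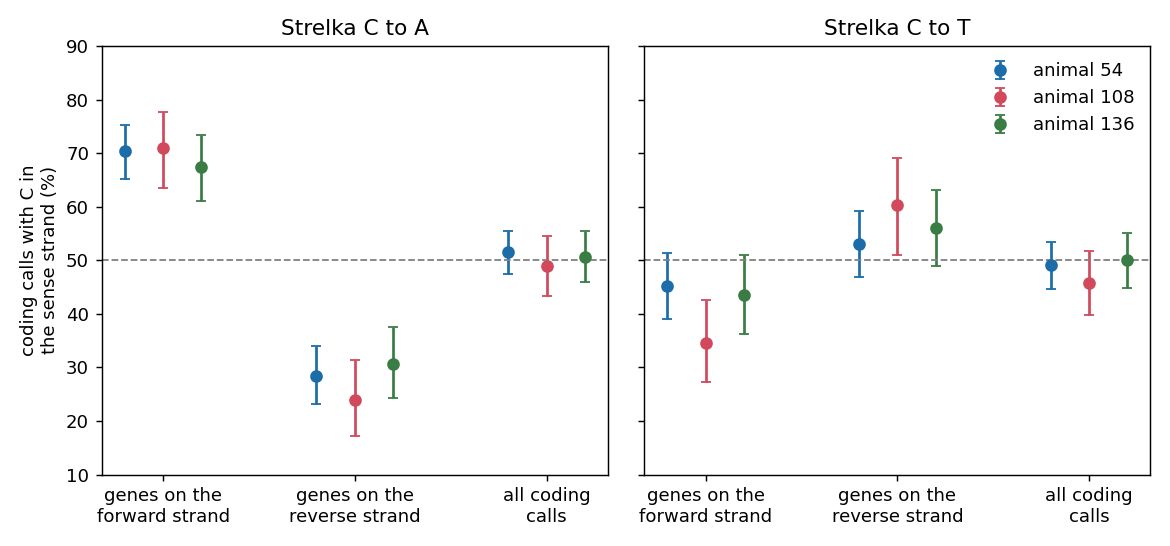
Share of coding Strelka calls with the changed C in the sense strand of the gene (%, y axis), for genes on the forward strand, genes on the reverse strand and all coding calls, for C to A (left) and C to T (right). Points are animals, bars are 95% Clopper-Pearson intervals and the dashed line is 50%. C to A lies between 67.4% and 70.9% in forward-strand genes and between 23.8% and 30.6% in reverse-strand genes.

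The lists of all variants, made with SAMtools for each sample alone, showed in which other sites the preference occurred. After the Strelka calls were removed, C to A sites found in marrow only with a variant fraction (variant reads over all reads) under 20% favoured the forward strand. The C lay there in 974 of 1350 sites (72.1%) for animal 54, 1216 of 1848 (65.8%) for animal 108 and 1001 of 1533 (65.3%) for animal 136. The ear had it too. C to A sites found in ear only with a fraction under 20% had 1365 of 1978 (69.0%), 1304 of 2027 (64.3%) and 1163 of 1604 (72.5%). Marrow minus ear was 3.14, 1.47 and -7.21 points in animals 54, 108 and 136, with Fisher's exact adjusted p of 0.0802, 0.345 and 4.52e-05. The mean was -0.867 ± 5.56 points (SD, n = 3 animals; exact sign-flip p = 1). The p-value in animal 136 counts sites of 1 pair of libraries and not animals, and over the animals the difference had no common sign.

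C to A sites found in both tissues lay close to an even split over all variant fractions. The C was on the forward strand in 50.1% of 2762, 49.9% of 4039 and 48.2% of 1236 such sites. Most of them, 2679, 3942 and 1190, had a fraction of 20% or more, unlike the sets compared with them below. Under 20% the share was 49.4% of 83 (38.2 to 60.6), 48.5% of 97 (38.2 to 58.8) and 56.5% of 46 sites (41.1 to 71.1). The comparisons below were not matched on fraction. Strelka C to A calls exceeded them by 22.1, 23.9 and 19.2 points (Fisher's exact adjusted p 7.43e-39, 7.10e-29 and 2.37e-18), with a mean of 21.8 points ± 2.38 (SD, n = 3 animals). Sites in ear only under 20% exceeded them by 18.9, 14.4 and 24.3 points (adjusted p 8.76e-39, 8.86e-27 and 2.06e-39).

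The preference was largest at variant fractions under 20%. Among marrow-only sites it was 74.2%, 70.4% and 67.6% at fractions of 10 to 15% in animals 54, 108 and 136, then 70.9%, 63.5% and 64.0% at 15 to 20%, then 56.2%, 52.9% and 56.9% at 20 to 30%, 51.6%, 50.5% and 49.9% at 30 to 50%, and 55.6%, 53.1% and 54.4% at 50% and over. The ear-only sites had 75%, 64.4% and 75.2% at 10 to 15%, 65.9%, 64.5% and 71.2% at 15 to 20%, 52.3%, 52.7% and 59.8% at 20 to 30%, 49.5%, 51.6% and 48.6% at 30 to 50%, and 48.9%, 55.0% and 52.7% at 50% and over. Sites of both tissues lay below 50% at 20 to 30%, with 45.3% (40.0 to 50.6), 43.8% (38.5 to 49.2) and 40.2% (34.004 to 46.7), and had 50.7%, 50.1% and 47.0% at 30 to 50% and 51.3%, 51.0% and 53.3% at 50% and over. The share of all single nucleotide sites that were C to A was also counted. Under 20% it was 38.5%, 34.01% and 35.1% among marrow-only sites, 30.1%, 34.8% and 32.0% among ear-only sites, and 15.3%, 15.4% and 17.2% among sites of both tissues. At 20% or more it was 17.3%, 14.3% and 16.2% among marrow-only sites, 14.1%, 14.9% and 19.7% among ear-only sites, and 9.27%, 8.93% and 11.96% among sites of both tissues. These groups of sites are descriptions chosen after the strand of the Strelka calls had been seen.

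**Figure D3:**
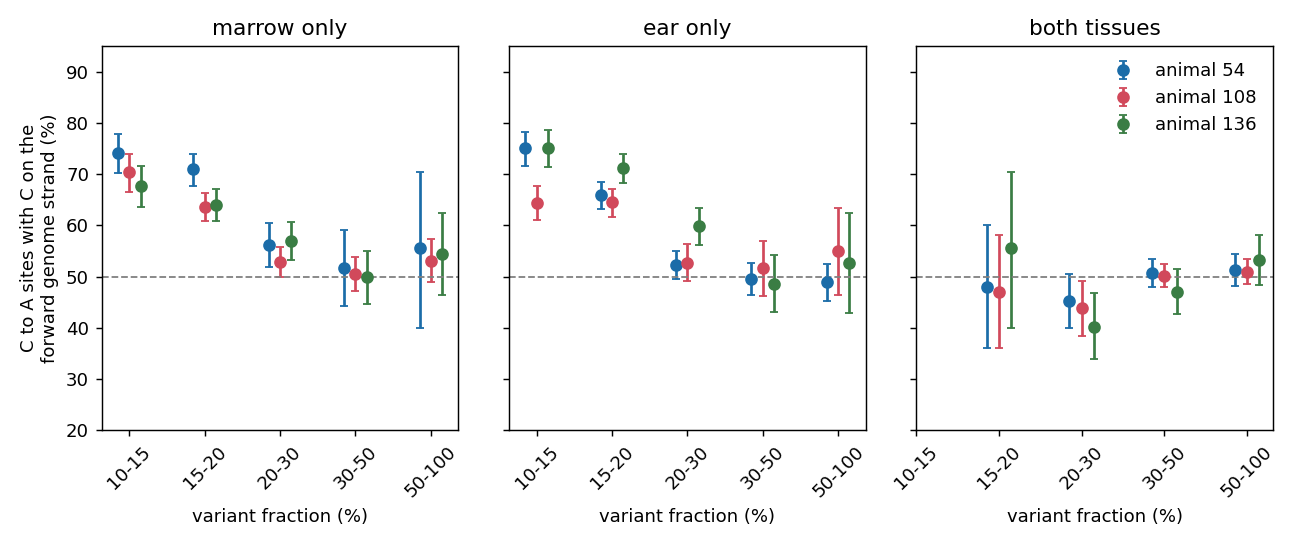
Share of C to A sites with the C on the forward genome strand (%, y axis) by variant fraction (%, x axis) in the lists of all variants, for sites found in marrow only (Strelka calls removed), in ear only and in both tissues. Points are animals in bins of at least 20 sites, bars are 95% Clopper-Pearson intervals and the dashed line is 50%. Both kinds of private sites lie above the line under 20% and near it from 30% upwards.

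Reads behind the Strelka calls could be seen only where SAMtools had listed the same variant in marrow. This held for 221 of 1205 C to A calls (18.3%) for animal 54, 74 of 600 (12.3%) for animal 108 and 67 of 848 (7.90%) for animal 136, against 16.1%, 13.6% and 9.27% of the other Strelka calls. None of these differences passed Fisher's exact test (adjusted p 0.354, 0.481 and 0.456). Depth and variant fraction of the remaining C to A calls are therefore unknown. In the calls that were listed, the median variant fraction was 13.3%, 13.3% and 12.5%, against 13.6%, 12.4% and 12.9% in the other calls, with a mean difference of 0.0849 points ± 0.760 (SD, n = 3 animals; exact sign-flip p = 1). The fractions rested on a median of 4, 4 and 5 variant reads at median depths of 34, 34.5 and 38 reads. The matched ear lists held none of the 2653 calls. Strelka had called them against that same ear, so this absence follows at least in part from the calling. A list made from another animal held 1 of the calls.

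The variant reads of these calls were split evenly between the read strands to an unusual degree. Of 362 C to A calls in the marrow lists, 339 had exactly as many variant reads on the forward as on the reverse read strand (93.6%, 90.6 to 95.9). There were 229 calls with 2 and 2 reads, 84 with 3 and 3, 25 with 4 and 4, and 1 with 5 and 5. By animal, 206 of 221, 67 of 74 and 66 of 67 calls were even. At the same positions the reference reads were even in 3 of 221, 2 of 74 and 0 of 67 calls. Reference reads were more numerous than variant reads, and larger counts are exactly equal less often, so these shares are not directly comparable. The forward share of the reference reads ran from 8.85% at the 10th percentile to 92.3% at the 90th. The read strand is the direction in which a read was sequenced and is separate from the genome strand of the changed C. Summed over calls, 49.2% of variant reads were forward where the C was on the forward genome strand and 48.8% where it was on the reverse strand in animal 54. In the same order, the shares were 49.8% and 50.4% for animal 108 and 50.0% and 50.4% for animal 136. With 339 of 362 calls even, these sums lie near 50% whichever genome strand holds the C. They restate the even split and are no separate result.

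**Figure D4:**
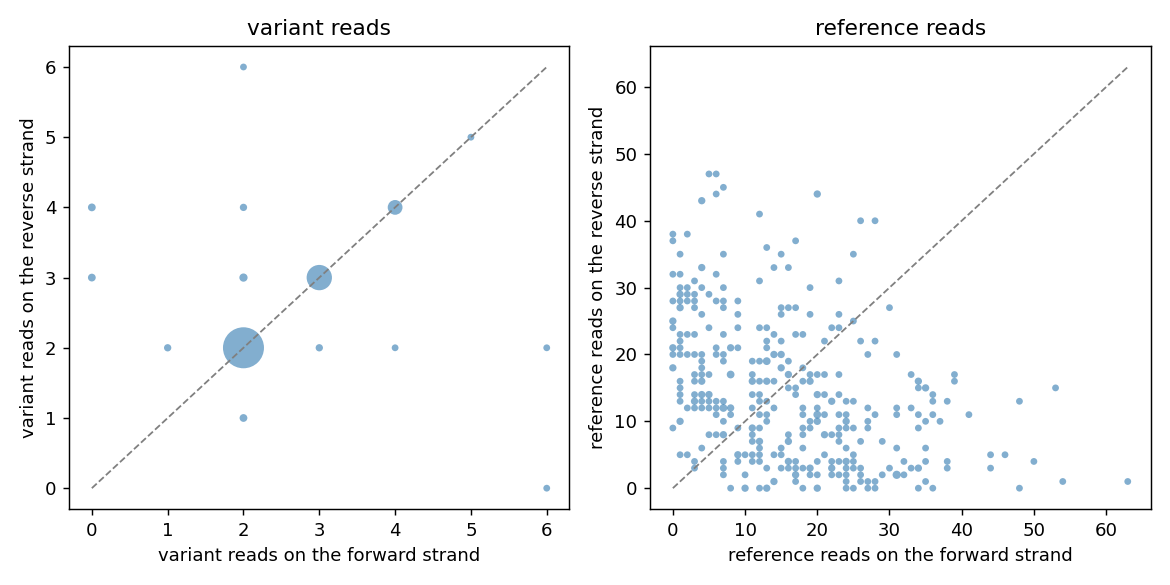
Reads on the forward read strand (x axis) against reads on the reverse read strand (y axis) at the 362 C to A calls of Strelka that are in the marrow lists, for variant reads (left) and reference reads (right). The area of a point grows with the number of calls and the dashed line marks equal numbers. Variant reads lie on the line in 339 calls and reference reads in 5.

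The even split was also common in the other Strelka calls and was rare at sites of both tissues. Among calls with 4 to 10 variant reads, 206 of 214, 67 of 73 and 66 of 67 C to A calls were even, which is 96.3%, 91.8% and 98.5%. The other Strelka calls had 92.5%, 92.4% and 93.0%, with differences of 3.74 points (95% interval -0.372 to 7.86), -0.592 points (-8.51 to 7.32) and 5.53 points (0.00981 to 11.04). None passed Fisher's exact test (adjusted p 0.236, 1 and 0.236), which does not show that the shares are alike. C to A sites of both tissues with 4 to 10 variant reads were even in 8 of 911, 15 of 862 and 2 of 412 sites (0.878%, 1.74% and 0.485%). Most of those sites, 758, 679 and 382 of them, had all variant reads on 1 read strand, which limits them as a comparison. Low-fraction C to A sites of the ear stood between, with 61 of 367, 185 of 328 and 96 of 240 even (16.6%, 56.4% and 40.0%). The lists give no read names, so whether the forward and reverse reads were the 2 ends of the same DNA fragments was not tested. Where they were, the number of molecules behind a call is smaller than its number of reads, and the intervals on single fractions below are too narrow.

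Strelka's quality scores were compared as a description. The median score was 27, 23 and 21.5 in animals 54, 108 and 136, against 27, 23 and 22 for the other calls, from a lowest value of 15 in each group. Scores of 30 or more were reached by 40.6%, 24.3% and 24.1% of the C to A calls (489, 146 and 204 calls), against 39.3%, 29.3% and 25.9% of the other calls. In animal 108 the C to A share was the lower one by the widest margin, and the difference was not tested.

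The neighbours of the changed C were read from the codon in coding calls, where the protein change and the base change leave a single neighbour possible. This fixed 1 neighbour, on the 3′ or on the 5′ side, for 1361 of 1365 coding calls. On the 3′ side, G followed the changed C in 12.9% ± 1.21 of C to A calls (SD, n = 3 animals), against 31.0% ± 4.51 of C to T calls and 36.4% ± 3.05 of C to A sites of both tissues. By animal the C to A values were 11.7%, 14.1% and 13.0%, and the C to T values were 28.5%, 36.2% and 28.2%, without overlap. T followed in 31.5% ± 1.01 of C to A calls and 15.8% ± 1.55 of C to T calls, and A in 34.5% ± 3.81 and 34.1% ± 2.14.

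On the 5′ side, the changed C of C to A calls had no leading neighbour. The base before it was T in 29.5% ± 2.98, G in 25.8% ± 2.77, C in 25.7% ± 1.20 and A in 19.0% ± 2.13 of calls (SD, n = 3 animals). C to T calls had G in 47.1% ± 1.07 and T in 14.4% ± 1.34, and sites of both tissues had G in 32.5% ± 4.76 and T in 17.2% ± 1.27. Codons restrict which neighbours can be read, so these shares are no genome-wide rates. A neighbour was fixed for 1361 of 1365 coding C to A calls, 1148 of 1190 C to T calls and 983 of 983 coding sites of both tissues. The side and the bases that can be read depend on codon position and protein change. The sets were not matched on these, and whether their codon mix accounts for the differences in neighbours was not tested.

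C to A calls changed the protein more often than the other Strelka calls. The 1365 coding calls held 966 missense changes (70.8%), 289 synonymous changes (21.2%), 106 stop codons gained (7.77%), 2 start codons lost and 2 stop codons lost. Protein-altering effects made up 79.3%, 79.6% and 77.5% of coding C to A calls in animals 54, 108 and 136, against 71.1%, 72.2% and 69.3% of the other coding calls. The differences were 8.20, 7.40 and 8.27 points (Fisher's exact adjusted p 0.000948, 0.0199 and 0.00449). The mean was 7.96 points ± 0.482 (SD, n = 3 animals; exact sign-flip p = 0.25). Against C to T alone, the mean difference was 10.5 points ± 1.53. The calls were chosen by their base change, and the genetic code gives each base change its own share of protein-altering outcomes. The shares expected from the code were not computed. These differences, and those of stop codons below, therefore describe the class and cannot be told apart from the code.

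Stop codons gained made up 7.21%, 7.74% and 8.56% of coding C to A calls, against 6.27%, 4.64% and 5.73% of C to T calls. This was higher in 3 of 3 animals and passed Fisher's exact test in none (adjusted p 0.556, 0.205 and 0.205), with a mean difference of 2.29 points ± 1.18. Stop codons were also counted by the sense of the change. Calls with G to T in the sense strand gained a stop codon in 69 of 674 cases (10.2%), and calls with C to A in the sense strand in 37 of 691 (5.35%). G to T was higher by 7.65 points in animal 54 and 6.26 points in animal 136, where it passed (Fisher's exact adjusted p 0.000791 and 0.0372), and in animal 108 the difference was -2.19 points (adjusted p 0.535). Over the animals the mean difference was 3.90 points ± 5.33 (SD, n = 3 animals; exact sign-flip p = 0.5), higher in 2 of 3 animals. Glutamate codons gave 57 of the 106 stops, followed by cysteine and tyrosine with 13 each, glycine with 12 and serine with 11.

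Among residue changes, alanine to serine had 68 calls, glutamate to stop 57, glutamine to lysine 56, proline to threonine 52, glycine to valine 45, alanine to aspartate 44 and aspartate to tyrosine 44. Alanine was the residue hit most often, with 159 calls (11.7% of coding C to A calls with a residue), followed by proline with 140 and leucine with 123. In C to T calls alanine was also first, with 20.4%, and glutamate, at 6.47% of C to A calls, had 2.69% of C to T calls. Codon positions 1, 2 and 3 held 34.2% ± 2.37, 27.2% ± 1.93 and 38.6% ± 0.962 of C to A calls, against 37.4% ± 0.928, 30.2% ± 2.19 and 32.4% ± 1.27 of C to T calls (SD, n = 3 animals). The difference in position counts between C to A and C to T did not pass the chi-square permutation test (adjusted p 0.235 in each animal).

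**Figure D5:**
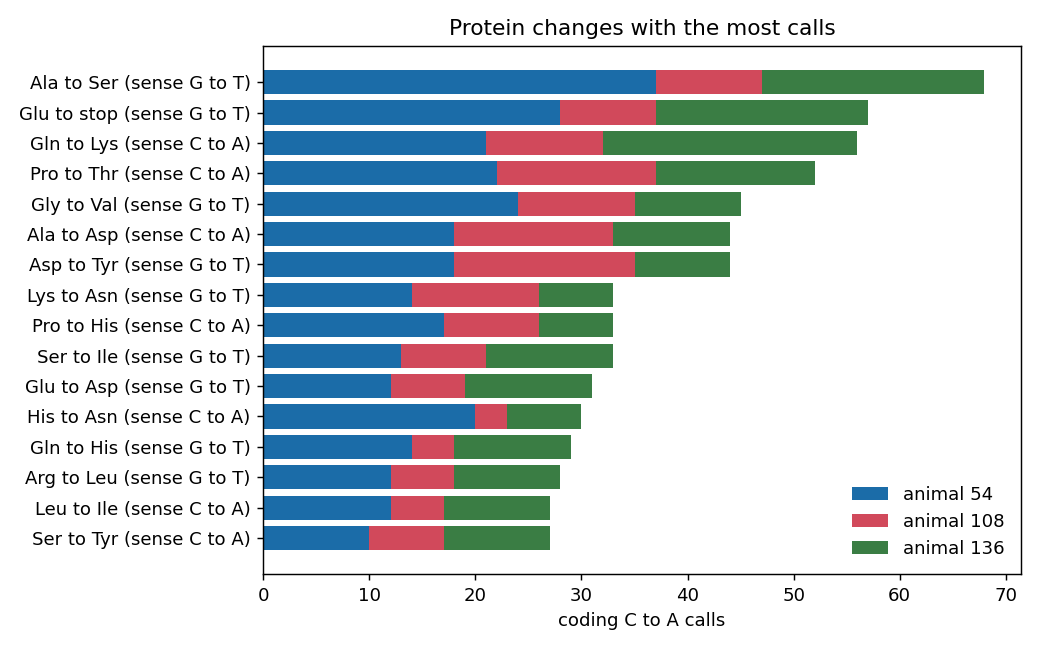
Number of coding C to A calls (x axis) for the 16 protein changes with the most calls, with the base change in the sense strand in brackets. Bar segments are the 3 animals. Alanine to serine leads with 68 calls and glutamate to stop follows with 57.

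Coding C to A calls fell in 588, 317 and 419 genes in animals 54, 108 and 136. The overlap that these numbers and coding length would give was not computed, so the overlap is a description. Over the animals there were 1259 genes, of which 1197 were hit in 1 animal, 59 in 2 animals and 3 in all 3 animals. Those 3 genes were Birc6, Ticrr and Ttn, each at a different position in each animal. Birc6 (ENSMUSG00000024073), an inhibitor of apoptosis with ubiquitin ligase activity, had N2222K in animal 54, the stop codon E2026* in exon 28 of 73 in animal 108 (chromosome 17, position 74612252) and T3454K in animal 136. Ticrr (ENSMUSG00000046591), a regulator of replication initiation, had L843I, P1643Q and S1540R in animals 54, 108 and 136, each with C to A in the sense strand. Ttn (ENSMUSG00000051747), the giant muscle protein titin, had the stop codon E6543* and a synonymous call in animal 54, a synonymous call in animal 108 and V20979F in animal 136. Birc6 and Ttn have very long coding sequences, and none of these calls was in a marrow list of all variants.

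The C to A calls held 106 stop codons gained, 16 splice acceptor calls, 5 splice donor calls and 2 start codons lost. Of these, 12 were also in the marrow lists, so that their reads are known. Of all 2653 C to A calls, 362 were in the marrow lists, and the difference in share was not tested. The stop codon E6* in Neurl2, which encodes an adaptor of a ubiquitin ligase, had 8 of 72 reads in animal 54 (11.1%, 4.92 to 20.7), 4 on each read strand. Dnm3, a dynamin family GTPase, had a splice acceptor call with 8 of 51 reads in animal 108 (15.7%, 7.02 to 28.6), again 4 on each read strand. In animal 136, Irf5, a transcription factor of innate immune signalling, gained the stop codon E147* in exon 4 of 9 (chromosome 6, position 29534588) with 6 of 47 reads (12.8%, 4.83 to 25.7). Brwd3, a bromodomain protein on the X chromosome, gained E1769* with 6 of 23 reads in the same animal (26.1%, 10.2 to 48.4). The other 8 were at Arid4a, Brf1, Ccdc13, Iqgap3, Ptplad1, Scnn1g, Sgol2 and Spata21, with 4 or 6 variant reads each. All 12 had equal variant reads on both read strands.

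The stop codon with the highest Strelka score was E120* in Srsf1, with a score of 70, in exon 2 of 5 (chromosome 11, position 88048653) in animal 54. Srsf1 is an SR protein and splicing regulator of the same family as Srsf2. Of the next 9 stop codons by score, Gpr155 and Taf7l had 67, Eif4e2 61, and Fkbp6, Mvp and Tenm2 57, all in animal 54. Among protein-altering calls the highest scores were 102 for D1219E in Cachd1 in animal 108, 100 for S318I in Rnft1 in animal 54 and 98 for G437W in Mfhas1 in animal 54. None of these calls was in a marrow list, so no variant fraction can be given.

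Genes were then read by function, from lists chosen with earlier results of these data known. Of all 21900 RefSeq protein-coding genes, 963 (4.40%) had a protein-altering C to A call, and this share does not allow for coding length. In the list of 22 genes of oxidised guanine repair, which takes in general base excision and mismatch repair genes, 4 were hit (18.2%). Mutyh, the glycosylase that removes adenine opposite 8-oxoguanine, had K126N in animal 54 with a score of 55. Nthl1, a base excision glycosylase for oxidised pyrimidines, had N253K in animal 54 (score 28). Pms2, a mismatch repair protein, had D854Y in animal 108 (score 32). Msh6, which recognises mismatches, had D931Y in animal 108 (score 19) and L871I in animal 136 (score 16). Ogg1 had none. In the list of 20 nucleotide excision and transcription-coupled repair genes, Gtf2h4, a subunit of the repair and transcription factor TFIIH, was hit (5%). It had S173I in animal 136 (score 45).

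Of 33 genes mutated in myeloid neoplasms, 4 were hit (12.1%). Dnmt3a, a DNA methyltransferase, had H584N in animal 54 (score 24) and A42S in animal 136 (score 18). Gnas, the locus of the stimulatory G protein subunit, had A178E in exon 1 of 12 in animal 54, with a score of 71. The locus has more than 1 protein product, and whether this call alters the stimulatory subunit was not tested. Kmt2a, a histone methyltransferase, had R2010S in animal 108 (score 29). Phf6, a chromatin-associated protein on the X chromosome, had the stop codon Y124* in animal 108 (score 21). Of 20 splicing factors, 2 were hit (10%), namely Srsf1 and Prpf8, the core spliceosome protein, which had P436T in animal 54 (score 23). Of 22 chromatin regulators, 5 were hit (22.7%). These were Arid1a (score 19), Arid2 with 2 calls in animal 136 (24 and 34), Kmt2c (22), Setd1b (21) and Tet1 (33). None of the calls in these lists was in a marrow list of all variants. With under 6 genes hit in each list and coding length not allowed for, the lists are a description of where the calls fell.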

How the data were processed

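Exons were captured from marrow and ear DNA of 3 animals (6 samples) with a mouse kit of 50 Mb, and the labels' protocols state a mean coverage of 100 reads. FastQC, Bowtie2 and SAMtools are named in the submitters' processing notes, as are GRCm38 and mm9. The authors' deposited Strelka lists give a quality score per call and no reads, per the file headers. The deposited lists of all variants give read counts per allele and read strand, with a lowest depth of 11 reads, and the VarScan2 lists give a somatic status. How the callers' results were filtered is not stated in the sources used here.

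For each call the SnpEff annotation with the strongest impact was kept, and a C to A call counted as protein-altering at HIGH or MODERATE impact. The gene strand came from the coding change and the genome strand from the listed bases. The base listed at 42 of 42 calls matched the GRCm38.p6 promoter sequences, and no other reference sequence was used. Shares have 95% Clopper-Pearson intervals, which cover counting error only. Intervals of differences are Wald intervals. Tests were two-sided: the exact binomial test against 50%, Fisher's exact test per animal, the exact paired sign-flip permutation test over animals and the chi-square permutation test (100000 resamples). Adjusted p-values are Benjamini-Hochberg values over the 3 animals, with a threshold of 0.05. Marrow and ear of an animal carry its number in the labels, and animal was the block. The scripts were tested on simulated data. Python 3.11.15, numpy 2.4.6, pandas 2.3.3 and scipy 1.17.1 were used.

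The members, lists and tests were chosen with earlier results of these data known. Named calls are those in genes hit in all 3 animals, high-impact calls in the marrow lists, the 10 stop codons and 10 protein-altering calls of highest score, the 10 with most variant reads, calls shared with VarScan2 and protein-altering calls in the gene lists, with the ones described chosen among them. Sequence windows were limited to promoters, in place of the named calls, and the comparisons of the lists of all variants and of read strands were added after the data were seen.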

Additional observations from a re-analysis of the deposited data

How the results depend on the processing

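Of 61 alternative values, 52 kept their direction or stayed within 1 SD over animals of the value reported, 5 moved further and 4 changed sign. Differences were judged by sign alone. The 52 take in alternatives without the replicate block, where the value could not change and only the p-value could. They also take in the first listed annotation, which gave the same stop codon and protein-altering differences. The count is therefore no measure of robustness. With calls of quality 30 or more, the sense strand share of coding C to A was 46.0% in place of 50.4%, its difference from C to T was -4.18 points in place of 2.11, and G on the 3′ side was 15.3% in place of 12.9%. In the calls of the marrow lists, an alternative chosen after seeing the data, the sense strand share was 60.0% over 76, 30 and 21 coding calls of animals 54, 108 and 136, and the genome strand share was 65.3% in place of 71.2%. With only the calls of equal variant reads, also added later, the genome strand share was 65.4%. The cause of these shifts was not tested.

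Leaving out each animal in turn gave 69.9% to 73.1% for the genome strand share and 24.7 to 29.6 points for its difference from C to T. It gave -1.34 to 0.479 points for the difference in the share found in the marrow list, above 0 without animal 108 (0.446) and without animal 136 (0.479), and -0.353 (without animal 108) to 0.329 points for the difference in median variant fraction. Without the replicate block, the unpaired exact permutation test gave p = 0.3 for the gene strand difference of 2.11 points, and p = 0.1, the smallest it allows, for the stop codon, protein-altering and genome strand differences. No other call changed. The stop codon difference was 0.193 points at quality 30 or more. Leaving non-coding calls out of the neighbour shares gave no separate value, since these came from coding calls only. Reads are known only for the calls in the marrow lists, and depth at the other calls is unknown.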
